A study of Mus musculus with 4 samples.

Results

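A set of 10 genes of the blood vessel lining was chosen by name: Tie1, Tek, Flt1, Kdr, Flt4, Pecam1, Emcn, Eng, Vwf and Esam. They are 10 of the 32812 genes with a symbol in the deposited count table. The samples are cultured cells from C57BL/6 mice, labelled as female germline stem cells and kept beyond passage 20; such cells are described as ovary-derived with germ cell properties. Of the 4 RNA sequencing libraries, 2 came from cells given spermidine, a polyamine studied as an inducer of autophagy, and 2 from control cells, all at 4 h by the series description. The labels give neither a dose nor whether libraries stem from separate cultures, and the p-values therefore reflect the variation of these libraries alone, possibly technical.

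Endothelial cells line blood and lymph vessels, and the ovary, where follicles and corpora lutea form and regress, keeps remodelling its vessels. Kdr, Flt1 and Flt4 encode receptor tyrosine kinases for vascular endothelial growth factors (VEGF): KDR drives vessel growth, FLT1 binds VEGF-A tightly and limits it, and FLT4 serves lymphatic vessels. Tek encodes TIE2, the receptor of the angiopoietins, and Tie1 encodes its partner, which has no strong ligand of its own. Pecam1, Emcn and Esam encode surface proteins of endothelial junctions and the cell surface, Eng a coreceptor of the TGF-beta family, and Vwf the clotting protein stored in endothelium and platelets. Pecam1, Eng, Vwf, Esam and Tek are also used by blood-forming cells or platelets, so none of the 5 marks endothelium alone. That does not mean that the other 5 genes do.

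The table counts reads per RefSeq transcript row, and reads that touch several rows appear to have been left out: the 49975 rows that share every base with another row took no more than 0.00140% of each library's counts. A gene can therefore be seen only on bases that belong to 1 row, here called own bases. Tie1 and Flt4 have 1 row each and keep all of their 3879 and 5839 exonic bases. Flt1 keeps 4590 of 7112 bases over 5 rows, and Kdr 1013 of 5475 over 2 rows. The other 6 keep almost none: 233 for Vwf, 139 for Eng, 17 for Emcn, 12 for Tek, 11 for Esam and 0 for Pecam1. In Tek, Emcn, Eng and Esam most of the other bases are shared between transcripts of the same gene. For Pecam1 and Vwf nearly all are shared with predicted transcripts that matched no symbol, and in Eng 61 bases are shared with another gene.

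**Figure D1:**
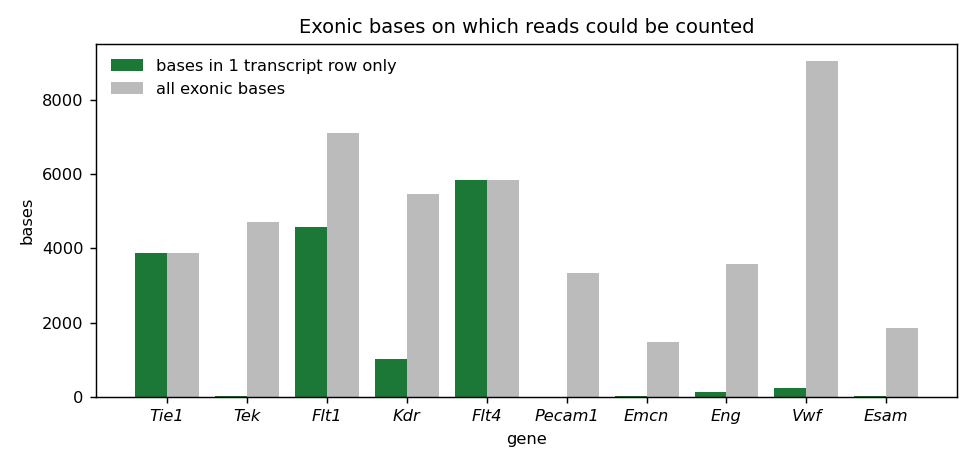
Exonic bases of the 10 genes (y axis, bases), with those found in 1 transcript row only in green and all exonic bases in grey. Only Tie1, Flt1, Kdr and Flt4 have more than 300 bases on which reads could be counted.

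These 6 genes gave 1 count together, a single Vwf count in spermidine replicate 1, and were not tested. With so few bases, that says little of their expression. At the level per base that Kdr had in spermidine replicate 2, the own bases of Eng would have given 6.998 counts and those of Vwf 11.7, but those of Emcn, Tek and Esam 0.856, 0.604 and 0.554. At the level of Tie1 in that library, Eng would have given 2.83 counts and Vwf 4.75. A count of 0 allows up to 3 counts, which is 3.81 and 1.75 CPM (counts scaled to the library's total) in the spermidine libraries and 0.416 and 0.421 CPM in the controls. Intervals and floors cover counting error only.

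The 4 receptor genes with usable bases lie on GRCm38 chromosome 4 (Tie1, minus strand, 118471191 to 118489849), chromosome 5 (Flt1, minus strand, 147562196 to 147726005, and Kdr, minus strand, 75933265 to 75979074) and chromosome 11 (Flt4, plus strand, 49609679 to 49652739). Their curated transcripts have 23 exons in Tie1 and 30 exons in each of the VEGF receptors. Nearly all own bases of Kdr lie in 2 stretches of its curated transcript, 667 bases from 75933265 to 75933931, all UTR in the GENCODE M21 annotation, and 327 bases from 75978102 to 75978428 at the 5′ end, of which 260 are UTR and 67 coding. The counts of Kdr therefore come from its ends. In Flt1 the longest stretch, 2211 bases from 147562196 to 147564406 at the 3′ end of the full-length receptor, holds 184 coding bases and 2027 of UTR. The own bases ignore strand.

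Promoters of endothelial genes are known to use ETS factors, whose DNA core is GGAA. The 250 bases before the RefSeq start are shown for the 4 measured genes, because these genes were counted side by side in the same libraries. They were taken from RefSeq (GRCm38.p6), whose table held 7 of the 10 genes, and are written 5′ to 3′ along the gene's strand with each GGAA or its reverse TTCC in capitals.
Tie1 (chr4:118489850-118490099, minus strand): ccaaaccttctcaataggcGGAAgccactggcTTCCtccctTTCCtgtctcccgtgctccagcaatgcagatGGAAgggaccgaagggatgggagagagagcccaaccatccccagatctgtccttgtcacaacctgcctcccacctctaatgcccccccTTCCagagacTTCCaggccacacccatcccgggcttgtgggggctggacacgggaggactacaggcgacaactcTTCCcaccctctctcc
Flt1 (chr5:147726012-147726261, minus strand): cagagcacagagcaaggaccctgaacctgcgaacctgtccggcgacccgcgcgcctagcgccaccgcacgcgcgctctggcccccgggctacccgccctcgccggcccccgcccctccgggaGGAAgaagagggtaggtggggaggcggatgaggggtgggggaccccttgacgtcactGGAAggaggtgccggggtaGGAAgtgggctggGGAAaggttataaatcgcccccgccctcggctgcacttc
Kdr (chr5:75978456-75978705, minus strand): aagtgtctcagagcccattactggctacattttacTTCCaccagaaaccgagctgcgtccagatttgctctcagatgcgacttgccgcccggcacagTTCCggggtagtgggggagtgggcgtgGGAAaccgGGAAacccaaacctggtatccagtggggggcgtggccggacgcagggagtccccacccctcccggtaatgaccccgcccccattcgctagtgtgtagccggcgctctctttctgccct
Flt4 (chr11:49609429-49609678, plus strand): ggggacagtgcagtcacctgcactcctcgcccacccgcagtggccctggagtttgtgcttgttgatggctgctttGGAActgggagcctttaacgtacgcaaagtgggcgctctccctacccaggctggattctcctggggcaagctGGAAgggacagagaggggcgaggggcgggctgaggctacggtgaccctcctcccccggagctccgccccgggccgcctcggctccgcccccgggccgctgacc
Tie1 has 7 such matches on both strands, a number reached by 3.8% of 32851 RefSeq promoters of this length. Flt1 and Kdr have 4 each, reached by 33.4%, and Flt4 has 2, reached by 76.8%. The median promoter has 3. TATAAA occurs in Flt1, 31 bases before its start, and in 12.4% of all promoters on either strand. A match is a run of letters and not a site of binding, and nothing here measures binding.

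The libraries differ in depth and background. The spermidine libraries held 787600 and 1718944 counts, and the controls 7206176 and 7128901. The transcript AY036118, a row at a ribosomal RNA locus, took 29.6% and 30.7% of spermidine counts, against 1.68% and 1.64% of control counts. On 1280 olfactory and vomeronasal receptor genes, most of which are active only in sensory tissue, there were 3.19 and 0.174 counts per kb in the spermidine libraries, against 0.0593 and 0.155 in the controls. This background was highest by far in spermidine replicate 1, and it is set beside the values of that library. These counts per kb are not scaled to depth. Spermidine replicate 2 had more of them than either control from a smaller library, so relative to depth its background was above the controls too.

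All 4 measurable receptor genes were higher in spermidine cells than in control cells, from control levels close to 0. The 4 changes passed the test across all genes, where 24.8% of 7836 tested genes were called higher in spermidine and 3.99% lower. Both spermidine libraries lay above both controls for each gene. Tie1 had the most counts, and Kdr had none in the controls.

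Tie1 had 49 and 79 counts in the spermidine libraries, against 4 and 1 in the controls. That is 62.2 and 46.0 CPM with spermidine and 0.555 and 0.140 CPM in the controls. Both spermidine libraries were far above both controls. The log2 fold change was 7.16 ± 0.91 (SE, 2 libraries per group), with an adjusted p of 0.00286 from the edgeR quasi-likelihood fit after Benjamini-Hochberg correction. The pooled ratio was 155.1 (95% counting interval 64.8 to 485.9).

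Among the VEGF receptors, Kdr, the main receptor of VEGF-A signalling, had 8 and 51 counts in the spermidine libraries, against 0 and 0 in the controls. Its spermidine levels lay apart, at 10.2 and 29.7 CPM. The pooled ratio was 119 with the controls set to a floor of 3 counts over the group (adjusted p = 0.00723, edgeR). That ratio leaves out counting error in the spermidine counts and is no lower bound. Most of these counts, 51 of 59, came from spermidine replicate 2.

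Flt1, which encodes the VEGF-A receptor that also exists in a soluble form, had 35 counts in each spermidine library, against 6 and 3 in the controls. Its level was 44.4 and 20.4 CPM with spermidine and 0.833 and 0.421 CPM in the controls, without overlap. Its log2 fold change was 5.54 ± 0.93 (SE; adjusted p = 0.00590, edgeR). Its curated full-length row carried 23 and 35 of the spermidine counts. The 4 shorter predicted rows, which end inside the gene, had 12 counts in spermidine replicate 1 and 0 in the other libraries. Of the 12, 8 fell on 1 row whose 491 own bases hold no coding or UTR bases of Flt1 in GENCODE M21.

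Flt4, the lymphatic receptor of VEGF-C and VEGF-D, had 26 and 38 counts in the spermidine libraries, against 4 and 1 in the controls. The levels were 33.0 and 22.1 CPM with spermidine and 0.555 and 0.140 CPM in the controls. The log2 fold change was 6.17 ± 0.99 (SE; adjusted p = 0.00479, edgeR).

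In bulk RNA, more cells of a type and more RNA per cell cannot be told apart. It was the spermidine libraries alone that brought the 4 receptor genes past the filter on low counts, and of the 1839 genes for which that was so, 87.2% were called higher. The count of 4 in 4 is near that share and is not a result about these genes. Both spermidine libraries lay above both controls for 36.6% of all tested genes, and for 100% of those that passed through the spermidine libraries only.

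**Figure D2:**
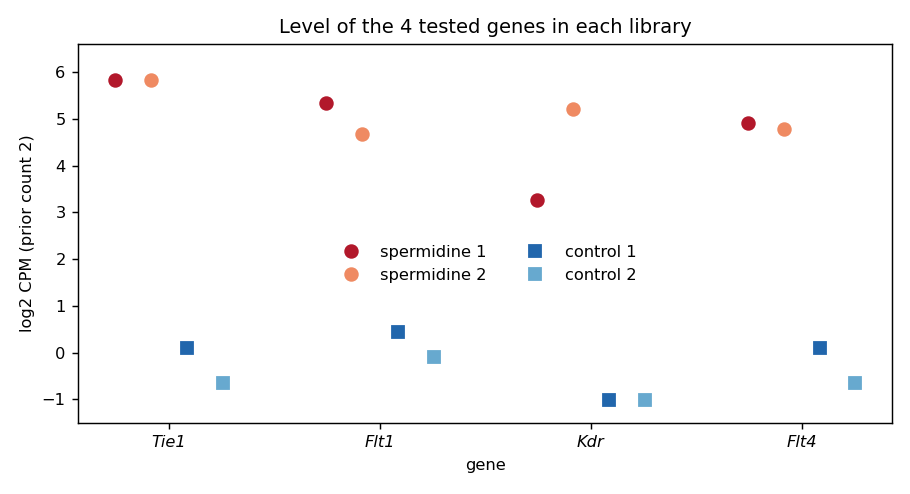
Log2 CPM with a prior count of 2 (y axis) of the 4 tested genes in the spermidine libraries (circles) and the control libraries (squares), 1 point per library. These log2 values use totals scaled by TMM, the normalisation of the test, unlike the CPM in the text. The spermidine libraries lie between 3.27 and 5.83, and the controls between -1.01 and 0.45.

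Some calls were lost when the filter, the depth or the libraries were changed. With no filter on low counts edgeR called 0 of the 4 (adjusted p 0.238 to 0.269, all 4 under 0.05 unadjusted) and 0 of all 29023 genes. With all libraries thinned to equal depth it called 1 of 3 tested, Tie1, and 5.62% of all 4291 tested genes. Without spermidine replicate 1 the log2 fold changes were 7.19 for Tie1, 6.13 for Flt4, 5.205 for Flt1 and 10.53 for Kdr. Without control replicate 1 they were 6.16 to 9.22. Both fits left 1 library in a group, and in both calls were lost among these genes and over all genes alike.

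The background on olfactory and vomeronasal genes bears on spermidine replicate 1. There, 12.4 counts would be expected on the own bases of Tie1 from the background alone, 14.6 on Flt1, 18.6 on Flt4 and 3.23 on Kdr. The 49 counts of Tie1 (95% exact Poisson interval 36.3 to 64.8) and the 35 of Flt1 (24.4 to 48.7) lay above these values. The 26 counts of Flt4 (17.0 to 38.1) had 18.6 inside their interval, so in that library Flt4 was not detectable above the background. The 8 counts of Kdr had an interval of 3.45 to 15.8, just above 3.23.

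The olfactory and vomeronasal genes varied around their mean. In spermidine replicate 1, 49 of the 1280 had at least as many counts per kb as Tie1, 132 as many as Kdr, 139 as many as Flt1 and 309 as many as Flt4. In spermidine replicate 2 the expected background was 0.176 to 1.01 counts against 35 to 79 observed, and 0 to 3 olfactory and vomeronasal genes reached the level of any of the 4. With the background subtracted from every gene, 21.3% of 7005 tested genes were called, 1255 of them higher, and the 4 genes were among these. Their log2 fold changes were 7.55 ± 1.09 for Tie1, 5.57 ± 0.99 for Flt1, 9.68 ± 1.67 for Kdr and 6.06 ± 1.26 for Flt4.

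**Figure D3:**
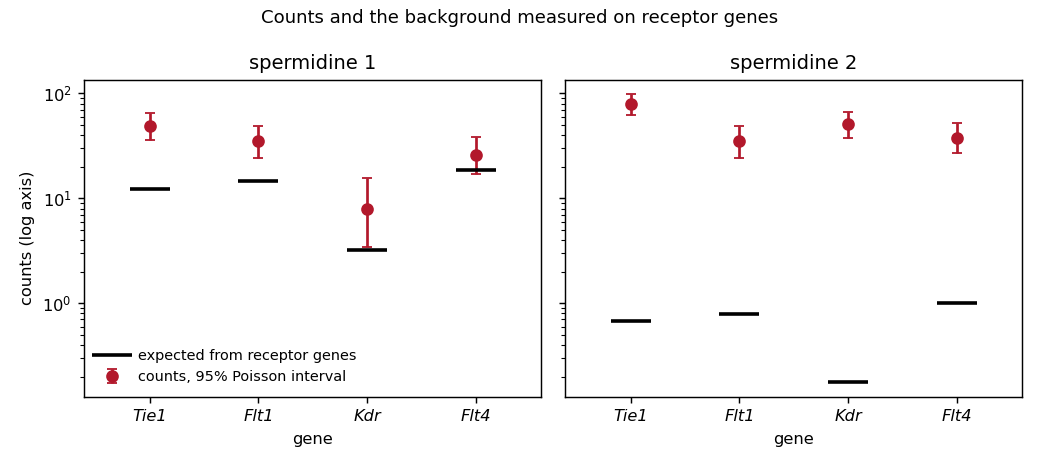
Counts (log axis) of the 4 genes in each spermidine library with 95% Poisson intervals (circles and bars), and the counts expected from the olfactory and vomeronasal receptor genes over the same number of bases (black lines). In replicate 1 the line for Flt4, 18.6 counts, lies inside the interval, and in replicate 2 the 4 genes had 35 to 79 counts against at most 1.01 expected.

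Levels can be compared between genes per kb of own bases. In spermidine replicate 1, Tie1 had the highest level, 16.04 CPM per kb, followed by Kdr with 10.03, Flt1 with 9.68 and Flt4 with 5.65 CPM per kb. In spermidine replicate 2, Kdr came first with 29.3 CPM per kb, then Tie1 with 11.9, Flt1 with 4.44 and Flt4 with 3.79 CPM per kb. Tie1 was above Flt1, and Flt1 above Flt4, in both libraries. Kdr and Tie1 changed places between the libraries. These levels include the background, and with it the ranges of Flt1 and Flt4 over the libraries overlap. After its subtraction, 20.4 of the 35 counts of Flt1 and 7.40 of the 26 counts of Flt4 remained in spermidine replicate 1. The overlap therefore depends on the background and says little of their difference. In the controls the 4 genes had 0 to 0.181 CPM per kb, Flt1 being highest in both.

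The spermidine libraries were also set against each other. The ratio of CPM in spermidine replicate 2 over replicate 1 was 0.739 for Tie1, 0.670 for Flt4, 0.458 for Flt1 and 2.92 for Kdr, with a median of 0.704. After subtraction of the background the ratios were 0.979, 2.29, 0.769 and 4.88 in the same gene order, with a median of 1.63. The 12 tested genes of another list of endothelial surface genes had a median ratio of 0.878 (0.217 to 3.21). The median was 4.65 (2.97 to 18.7) in 6 granulosa genes, 12.0 (3.11 to 32.8) in 6 oocyte genes, 1.80 (0.191 to 5.29) in 9 stroma genes and 2.69 (0.840 to 6.85) in 4 mural cell genes. After subtraction the medians were 1.16 for the other endothelial surface genes, 6.77 for granulosa, 21.2 for oocyte, 2.08 for stroma and 4.89 for mural cell genes. These are single ratios between libraries, with no test. All of them scale counts to library totals. The TMM factors, the normalisation of the test, were 1.297 and 0.824 for spermidine replicates 1 and 2 and would raise every ratio alike. Tie1, with a ratio of 0.739 here, had log2 CPM of 5.821 and 5.826 after TMM scaling. Whether a ratio lies below or above 1 can therefore depend on the scaling.

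**Figure D4:**
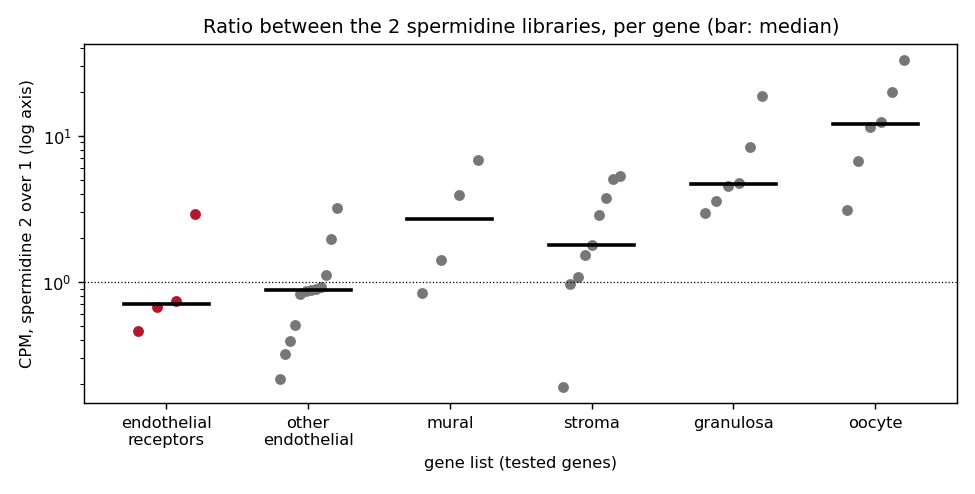
CPM in spermidine replicate 2 over replicate 1 (log axis) for tested genes of 6 lists, 1 point per gene, with the median as a bar. The CPM scale to library totals, and TMM scaling would raise every ratio alike. The endothelial receptors have a median of 0.704 and the granulosa and oocyte genes 4.65 and 12.0; with the background subtracted, which is not drawn, these are 1.63, 6.77 and 21.2.

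In 6 further lists of vessel genes, 44 of 90 genes were tested, of which 27 were higher and 2 lower in spermidine. Of these 44, 15 passed the filter only through the spermidine libraries. Of the other 29, 12 were higher, against 5.65% of the 5997 tested genes that passed in other ways. These lists were drawn up with earlier results known, and no list was tested as a set.

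Endothelial surface and junction genes were higher for 11 of 12 tested, but 8 of the 12 passed the filter only through the spermidine libraries, as did the genes of which 87.2% were called. The other 4 had a median log2 fold change of 3.78, against -0.35 for the 5997 tested genes that passed in other ways. Stab2, a scavenger receptor of sinusoidal endothelium, had 59 and 28 counts in the spermidine libraries, against 1 and 1 in the controls, a pooled ratio of 263.6 (95% counting interval 70.8 to 2211). Clec14a, a lectin of the endothelial surface, had 55 and 47 against 0 and 1 (ratio 618.1, 108.5 to 24650). Aplnr, the apelin receptor of sprouting vessels, had 20 and 86 against 0 and 3 (ratio 214.1, 71.3 to 1055), and its 20 counts compare with 11.4 expected from the background.

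Cldn5, the tight junction claudin of endothelium, had 23 and 45 counts in the spermidine libraries, against 0 and 1 in the controls (ratio 412, 71.5 to 16510; adjusted p = 0.00510, edgeR). Cdh5, which encodes the defining VE-cadherin, has 54 own bases and had 0 counts in every library. Outside the spermidine-only genes, 3 of 4 were higher: Jam3 (3.97 ± 0.67), the multimerin Mmrn2 (3.59 ± 0.89) and Cd93 (5.30 ± 0.76), named after their values were seen, as was S1pr1, which was not called (1.36 ± 0.89). Cd93 had 73 and 141 counts with spermidine, against 24 and 8 in the controls, and is also made by blood-forming cells.

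Of 10 ligands and coreceptors, 6 have under 300 own bases and 3 were tested, of which 2 were higher. Vegfa has 0 own bases, and Angpt1, the activating ligand of TIE2, had 2 counts, both in spermidine replicate 1. Angpt2, the context-dependent ligand of TIE2, had 18 and 237 counts with spermidine, against 28 and 7 in the controls, and rose by 5.25 ± 1.09 on the log2 scale (adjusted p = 0.00800, edgeR). Its 18 counts in spermidine replicate 1 (10.7 to 28.5) include the 11.3 expected from the background in their interval. Nrp1, the VEGF coreceptor, had 24 and 39 against 1 and 15 and rose by 4.54 ± 1.01. Vegfc, the ligand of FLT4, was not called, with 9 and 34 counts against 73 and 97 (log2 fold change 0.55 ± 0.76).

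Of the endoglin and ALK1 pathway, 2 of 6 tested genes were higher and 1 lower, with a median log2 fold change of 0.54. Id3, a target of BMP signalling, had 98 and 971 counts with spermidine, against 35 and 92 in the controls, and rose by 5.46 ± 0.99. The TGF-beta coreceptor gene Tgfbr3 rose by 4.00 ± 0.79. Id2, another such target, had 69 and 236 against 3012 and 2733 and fell by 1.74 ± 0.57 (adjusted p = 0.0491, edgeR). Acvrl1, which encodes the receptor ALK1 and has 186 own bases, had 15 counts in spermidine replicate 1 and 0 elsewhere, and was not tested.

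Transcription factors of endothelium moved in both directions, with 5 higher and 1 lower of 12 tested. Epas1, which encodes the hypoxia factor HIF-2 alpha, had 93 and 408 counts with spermidine, against 13 and 15, and rose by 6.604 ± 0.81. Sox18 rose by 6.20 ± 1.08, with 38 and 283 counts against 21 and 2, and Sox7 by 5.89 ± 1.37, with 45 and 11 against 0 and 6. Fli1, an ETS factor shared with blood cells, was not called (-0.25 ± 0.75), with 27 and 17 counts against 129 and 206. The ETS gene Erg has 115 own bases and had 1 count, in control replicate 2. Gata2, a factor of blood progenitors and endothelium named after its values were seen, fell by 2.84 ± 0.66.

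Notch genes of vessels were higher for 5 of 6 tested, of which 3 passed the filter only through the spermidine libraries; of the other 3, 2 were higher. Heyl, a Notch target common in mural cells, had 59 and 497 counts with spermidine, against 4 and 4, and rose by 8.45 ± 1.08. The tip cell ligand gene Dll4 had 18 and 43 against 4 and 0 and rose by 6.35 ± 1.17, and Jag1 had 12 and 29 against 0 and 1 (ratio 248.4, 42.2 to 10050). In spermidine replicate 1 the 18 counts of Dll4 and 12 of Jag1 compare with 10.3 and 21.9 expected from the background, so Jag1 was not detectable there. Of 5 tested haemostasis genes, 2 were higher. Thbd, which encodes thrombomodulin, had 44 and 320 counts against 1 and 0 (ratio 2206, 393.4 to 87350), Plat, the tissue plasminogen activator gene, rose by 4.77 ± 0.92, and Procr had 1.74 ± 1.03 without a call.

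**Figure D5:**
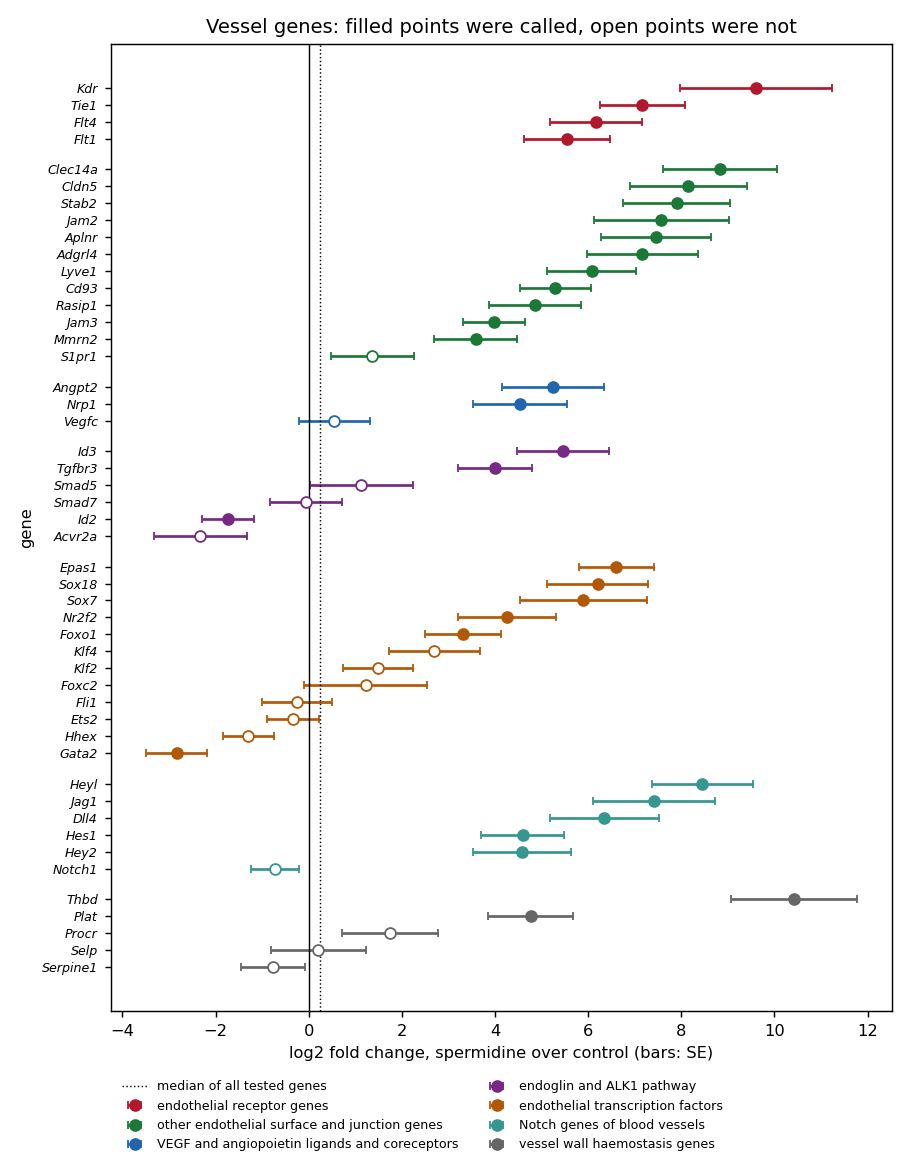
Log2 fold change, spermidine over control, with its SE (x axis) for tested genes of the 4 receptors and 6 vessel lists; filled points were called. Points of genes with 0 to 3 control counts, such as Kdr and Thbd, depend on the prior count and are not bounds. The dotted line marks the median of all tested genes, 0.23. The receptors lie between 5.54 and 9.60, beside a median of 5.83 for the 1839 genes that, like them, passed the filter only through the spermidine libraries.

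Markers of other cells moved beside the receptor genes, and their part in the result was not tested. Granulosa genes summed to 556 and 5212 CPM in the spermidine libraries, against 4.58 and 6.59 CPM in the controls, and 6 of 6 tested of 11 were higher. Of these 6, 5 passed the filter only through the spermidine libraries, where 87.2% of genes were called higher. Their top genes were Inhbb and Inha, and Amh, Amhr2 and Nr5a1 were at 0. Inhba, with 3275 own bases, was not tested. It had 4 counts in spermidine replicate 1, against 10.4 expected there from the background, and 0 in the other libraries. Oocyte genes, led by Padi6 and Zp3, summed to 180.3 and 1962 CPM against 1.39 and 2.67, with 6 of 6 tested of 11 higher, all 6 through that filter class, and Zp2, Nobox and Nlrp5 at 0. Stroma genes, led by Col3a1 and Col1a2, summed to 2292 and 8454 CPM against 71.6 and 174.1, with 6 of 9 tested of 10 higher, 4 of the 9 being in that class, and Postn at 0. Mural cell genes, led by Acta2 and Cspg4, summed to 226 and 849.9 CPM against 12.6 and 23.0, with 3 of 4 tested of 12 higher, 1 of the 4 being in that class, and Kcnj8 and Higd1b at 0. Cspg4 was the one not called (adjusted p = 0.0505, edgeR). Pdgfrb, with 670 own bases, had 0 and 0 counts with spermidine, against 2 and 0 in the controls, and was not tested. The 10 receptor genes summed to 151.1 and 118.1 CPM with spermidine, against 1.94 and 0.701 CPM in the controls. All of these sums include the background. In spermidine replicate 1 it would give 12.4 of the 49 counts of Tie1, 14.6 of 35 for Flt1, 18.6 of 26 for Flt4 and 3.23 of 8 for Kdr. The order of the 2 spermidine sums of the receptor genes therefore says little.

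Blood cell markers moved in both directions. Megakaryocyte and platelet genes, led by Itga2b and Ppbp, summed to 200.6 and 83.8 CPM with spermidine, against 801.2 and 662.2 CPM in the controls, and 1 of 3 tested of 10, Itga2b, was lower (-2.61 ± 0.56), with Gp6 and Treml1 among those at 0. Itga2b carried the sum: the other genes of the list summed to 27.9 and 7.56 CPM with spermidine, against 4.86 and 8.84 CPM in the controls. Leukocyte genes, led by Fcer1g and Cd68, summed to 493.9 and 144.8 against 388.4 and 310.7, with 1 higher and 1 lower of 6 tested of 13, and Laptm5, Spi1, Itgam, Csf1r and Cd3e among those at 0. Fcer1g was the lower one (-2.995), and Lyz2, the lysozyme gene of myeloid cells, named after its values were seen, was the higher one, with 239 and 190 counts against 81 and 49 (log2 fold change 4.43). Mast cell genes, led by Cpa3 and Cma1, summed to 62.2 and 5.82 against 135.8 and 86.3, with 1 of 2 tested of 10 lower and Fcer1a and Ms4a2 at 0. The lower sum was that of Cpa3, without which the list summed to 49.5 and 1.75 CPM against 7.63 and 9.26.

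Germline genes, led by Tex19.1 and Ifitm3, summed to 180.3 and 297.8 CPM with spermidine, against 282.1 and 271.6 CPM in the controls, with 3 higher and 1 lower of 5 tested of 10. Of these 5, 2 passed the filter only through the spermidine libraries, where 87.2% of genes were called higher. Of the other 3, 1 was higher. Without Tex19.1, the lower one, the germline genes summed to 134.6 and 283.3 against 10.8 and 23.3 CPM. The defining germ cell genes Ddx4 and Dazl had 1 and 3 counts in all, and Nanos3 had 0. A marker at 0 can be one with few own bases, as for the receptor genes.

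The genes closest to Tie1 were found by the distance over the 4 libraries in TMM-scaled log2 CPM centred on each gene's mean. Among 6993 other tested genes with a symbol they were Rtl6 (distance 0.25), Pgm5 (0.26), Oxtr (0.34), Chn2 (0.42) and D030018L15Rik (0.42). Rtl6 had 40 and 79 counts with spermidine, against 4 and 1 in the controls. The other 4 had 30 to 33 and 41 to 60 counts with spermidine, against 1 to 3 and 0 in the controls. No such search was possible for Pecam1, which had no counts.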

How the data were processed

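RNA of 2 spermidine and 2 control libraries was sequenced, per the labels' protocols, from DNase-treated RNA after mRNA isolation; the labels name both a directional and another library kit. The submitters' processing notes name HISAT2, DESeq2 and mm9, without roles. The authors deposited raw counts for 106519 RefSeq transcript rows with exon lengths and positions, per the file headers; the counting program was not stated in any source at hand. Of the rows, 80.8% matched a RefSeq gene of GRCm38, and 88.5% of these lay inside that gene's GRCm38 span, so positions are given as GRCm38. Unmatched rows held 4.45% and 1.13% of spermidine counts and 1.72% and 1.63% of control counts and stayed as their own features.

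Rows were summed by gene, filtered with filterByExpr (minimum count 10, minimum total 15), normalised by TMM, then tested in R 4.3.3 with edgeR 4.0.16 (estimateDisp, glmQLFit, glmQLFTest; group only). A gene was called when its p, corrected over all tested genes by Benjamini-Hochberg, was under 0.05. SEs come from the F statistic. CPM scale the deposited counts to each library's total. Ratios use TMM-scaled totals and 95% binomial counting intervals. The procedure was also run on simulated counts with known changes. These had a single dispersion for all genes and no added background, so they do not bear on the calls made here. Replicates of a group were no duplicates (chi-square over degrees of freedom 17.1 for spermidine and 21.2 for control). Alternatives used limma 3.58.1, DESeq2 1.42.0, other scalings, filters, backgrounds, depths and libraries.

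The genes and lists were chosen with earlier results of these data known. Named are the 10 genes, the 3 smallest p of each vessel list, 8 fixed genes (Cdh5, Cldn5, Vegfa, Nrp1, Angpt1, Acvrl1, Erg, Fli1), of each cell type list the 2 with most counts and those at 0, and the 5 nearest to Tie1. Others were chosen after their values were seen. Some genes that this rule names are not reported here.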

Additional observations from a re-analysis of the deposited data

How the results depend on the processing

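Of 16 alternatives, 15 gave a value for Tie1, Flt1 and Flt4 and 14 for Kdr, and no log2 fold change changed sign. A change of sign was hardly possible, because both spermidine libraries lay above both controls for each of the 4. The same was true of 100% of the 1839 genes that passed the filter only through the spermidine libraries. The ranges were 4.92 to 8.31 for Tie1, 3.78 to 6.16 for Flt1, 8.15 to 10.5 for Kdr and 5.24 to 7.33 for Flt4. With RLE or upper-quartile factors, DESeq2, limma-voom, single transcript rows and the background subtracted, all 4 kept their call. The same held for edgeR without a fitted dispersion trend and with its legacy method, both added after seeing the data. Each of these fits called 21.3% to 29.3% of all the genes it tested, so 4 kept calls are not a result about these genes alone. With no low-count filter edgeR called 0 of 29023 genes (4255 at an unadjusted p under 0.05) and 0 receptor genes (4 unadjusted, adjusted p 0.238 to 0.269). With at least 1 CPM in all libraries 275 genes were called and no receptor gene could be tested. All genes called numbered 1491 with the background subtracted. At equal depth, 554572 counts without AY036118, 241 genes were called and 1 receptor gene, Tie1 (4.92 ± 1.21), while Kdr had too few counts. Leaving out each replicate gave 0 to 3725 calls over all genes and 0 to 4 receptor genes, and the cause was not tested; the spread of a lone library was taken from the other group. With a replicate block 1775 genes, 22.7% of those tested, and all 4 receptor genes were called. The labels do not say that the numbers pair samples, and same-numbered deviations correlated at -0.0299. Depth limits these genes: the smaller spermidine library had 8 to 49 counts on each of them.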
